A study of Homo sapiens with 2 samples.

Results

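Adenosines that lie in unbroken runs of 5 or more were examined in the mRNA of HEK-293T cells. Such a run is at least 5 consecutive A positions of 1 strand that are listed for both libraries. A position was taken when it lay on chromosomes 1 to 22 or X and had at least 10 base reads in each library. This rule uses sequence and depth, and no mismatch. It gave 65729 positions in 12239 runs, out of 1424257 A positions of the same depth. HEK-293T is an established human embryonic kidney line, and the cells of both libraries carried a CIRTS-hADAR biosensor. The 2 groups are cells without ABA, a small molecule, and cells with ABA, with 1 library each, from 1 biological replicate per the design text of the series. Dose and time of ABA, the vectors and the share of cells that carried the biosensor are not given in the sources used here.

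ADAR enzymes deaminate adenosine in RNA to inosine, which is read as G after reverse transcription. Their catalytic domain prefers some neighbouring bases over others, with U or A favoured on the 5′ side and G on the 3′ side. CIRTS is an engineered RNA-targeting system built of human protein parts, here joined to a human ADAR domain, and the title of the series describes control of such systems by a small molecule. A run of A fixes the neighbours of its members. The first A of a run, read 5′ to 3′ on the transcript, has another base before it and an A after it. An interior A has an A on either side, and the last A has an A before it and another base after it. The place in the run therefore separates these 3 surroundings without any annotation. The exception is a run that ends beside an A of too low depth to be listed, whose first or last place is then an interior A.

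An A-to-G rate is the number of G reads over A plus G reads, summed over positions. The A-to-C and A-to-T rates of the same positions are given beside it as background changes. Intervals are at 95% and cover counting error only. With 1 library per condition no difference has a replicate check, and each comparison sets the libraries against each other rather than the conditions. A single read spans several places of a run, so that counts of neighbours depend on each other and the intervals come out somewhat too narrow.

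The 4 runs below show how the places lie in sequence. They are those of lowest p when the reads of each run were compared between libraries. Each line runs 5′ to 3′ on the transcript. Capital A marks the run, lower-case a marks other listed A positions, and n stands for any position not listed in both libraries, which is another base or an A of low depth. Coordinates are those of the files, in the hg19 build.
chr12:21790042-21790046, minus strand: annnannnnnAAAAAnnnannnann
chr3:40503564-40503569, plus strand: aannnnnannAAAAAAnannannnnn
chr15:66791830-66791835, minus strand: nnnnnnnnnnAAAAAAnnnannannn
chr2:232577587-232577597, plus strand: annnaaannAAAAAAAAAAAnnnnnnnnn

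A-to-G mismatches of run positions were more frequent with ABA, by a smaller factor than at other A positions. Of the members, 9 had a G share of at least 35% in at least 1 library and were left out as variant-like, which leaves 65720. In the library without ABA, 499 of 1464133 reads were G, or 0.0341% (0.0312 to 0.0372). In the ABA library it was 619 of 1358758, or 0.0456% (0.0420 to 0.0493). The ratio of ABA to no ABA was 1.34 (1.19 to 1.51), a difference of 0.0115 percentage points (0.0068 to 0.0161). The 1358226 positions outside such runs rose from 0.0485% to 0.0929%, a ratio of 1.91 (1.87 to 1.96). The ratio of run positions was 0.698 times that of the others (0.619 to 0.787).

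Within each library the run positions were lower than the rest. Their A-to-G rate was 0.703 times that of other positions without ABA (0.641 to 0.768) and 0.490 times with ABA (0.452 to 0.531). A-to-C was likewise lower in runs, at 0.487 times the rate elsewhere without ABA (0.386 to 0.606) and 0.583 times with ABA (0.473 to 0.710). A-to-T was higher in runs, at 1.41 times without ABA (1.16 to 1.69) and 1.52 times with ABA (1.25 to 1.83). With the position of most T reads left out on either side, a choice made after seeing the data, it was 1.23 (0.994 to 1.497) and 1.28 (1.04 to 1.57). With the positions where a large share of reads showed T left out instead, it was 1.48 (1.20 to 1.81) and 1.34 (1.07 to 1.66). Both choices lowered the excess with ABA, while without ABA they moved it in opposite directions. By length, the A-to-T rates of runs of exactly 5, at 0.00446% and 0.00509%, were not above the 0.00583% and 0.00588% outside runs. Neither were those of 6, at 0.00244% and 0.00339%, or of 20 or more, at 0.00281% and 0.00356%. Runs of 8 had 0.0084% and 0.00305%. The excess lay in runs of 7, at 0.0156% and 0.0196%, and of 9 to 19, at 0.0482% and 0.0460%. Between libraries, the A-to-C rate of run positions was 0.0056% and 0.00744%, a ratio of 1.33 (0.982 to 1.80) whose interval holds 1. Their A-to-T rate was 0.0082% and 0.00891%, a ratio of 1.09 (0.837 to 1.41).

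The members were mostly in short runs. Of 19975 listed runs, 13321 had exactly 5 A positions, 3784 had 6, 1295 had 7 and 501 had 8. Another 803 had 9 to 19, and 271 had 20 or more. Runs of exactly 5 held 36288 members, or 55.2%. Median depth was 16 base reads without ABA and 15 with ABA in runs of exactly 5, and 26 and 21 in runs of 20 or more.

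**Figure D1:**
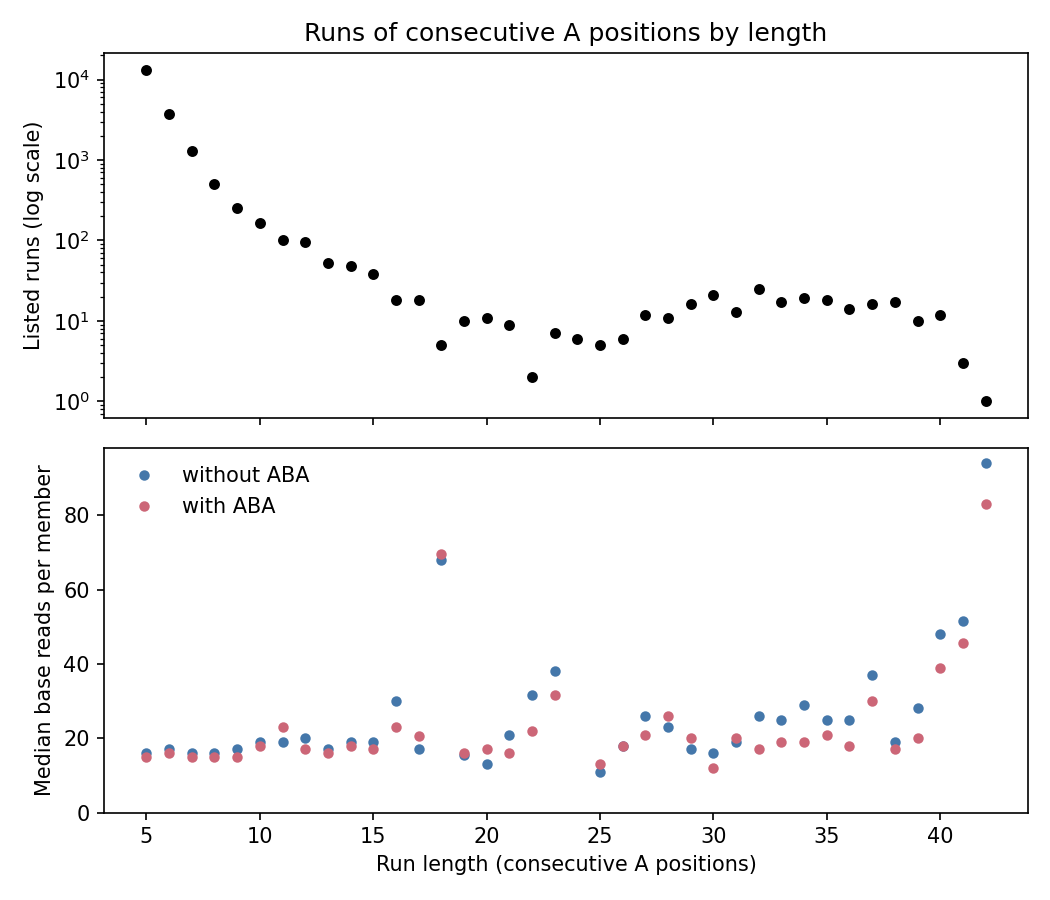
Number of listed runs (upper panel, log scale) and median base reads per member in each library (lower panel) against the number of consecutive A positions. Runs fall from 13321 at 5 to 5 at a length of 18, and number 10 at 19. Another 46 lie at 20 to 26, with as few as 2 at a length of 22. A second group of 225 runs lies at 27 to 42, of which 25 are 32 long.

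The long runs stood apart from the short ones in more than length. The 271 runs of 20 or more lay on the plus strand in 79.7% of cases, against 51.8% of runs of 5 to 19. No other A was listed within 100 nt downstream of 89.7% of them, against 5.30% of runs of 5 to 19. Upstream the shares were 38.0% and 5.21%. Long runs held 8.94% of members and 17.0% of member base reads without ABA, and 14.5% with ABA. Their summed depth with ABA was 0.789 times that without ABA, against 0.956 times in runs of 5 to 19.

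Long runs had few A-to-G and A-to-C mismatches. In 5878 positions of runs of 20 or more, 10 of 249273 reads were G without ABA, a rate of 0.00401% (0.00192 to 0.00738). With ABA it was 10 of 196695 reads, 0.00508% (0.00244 to 0.00935). The ratio of 1.27 (0.473 to 3.39) leaves the direction unresolved at this depth. These rates were 0.0827 times (0.0396 to 0.152) and 0.0547 times (0.0262 to 0.101) those outside runs. A-to-C was low as well, at 2 and 3 reads. A-to-T stood at 7 reads in each library, 0.481 times the rate outside runs without ABA (0.193 to 0.994) and 0.606 times with ABA (0.243 to 1.25), the latter unresolved.

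The longest run, chr5:20555518-20555559 on the minus strand, held 42 consecutive A positions. It had 3 G reads of 3452 without ABA and 1 of 3077 with ABA. The run with most reads, chr5:94828357-94828393 on the plus strand, held 37. It had 0 of 25447 G reads without ABA, which allows up to 0.0118%, and 0 of 17410 with ABA, which allows up to 0.0172%. Both limits lie under the mean rate of runs of 5 to 19 given below. The 3 runs of 41 A positions, chr7:155948351-155948391, chr10:804079-804119 and chr9:36621273-36621313, had no G read among 2526, 1495 and 2116 reads without ABA, which allows up to 0.119%, 0.201% and 0.142%. With ABA they had none among 1934, 2158 and 1488, which allows up to 0.155%, 0.139% and 0.202%. One base before the deepest long run ends another run of 15, chr5:94828341-94828355, with 1 G read of 3678 and 4 of 3544. Its A plus G reads without ABA went from 47 at the first place to 359 at place 10 and 227 at the last.

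Because the long runs add many interior positions with few mismatches, rates are given below with and without them. Runs of 5 to 19 alone, with 59842 positions, had A-to-G rates of 0.0403% (0.0368 to 0.0440) and, in the ABA library, 0.0524% (0.0483 to 0.0567). That ratio, 1.30 (1.15 to 1.47), was 0.680 times that of positions outside runs (0.603 to 0.767). The gap in ABA ratio to other positions is as large without the long runs.

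Summed over all runs, the last A had the highest A-to-G rate of the 3 places in both libraries. At last places, 122 of 206902 reads were G without ABA, or 0.0590% (0.0490 to 0.0704), and 179 of 197837 with ABA, or 0.0905% (0.0777 to 0.105). Interior places had 296 of 1038269, or 0.0285% (0.0254 to 0.0319), and 361 of 951253, or 0.0379% (0.0341 to 0.0421). First places had 81 of 218962, or 0.0370% (0.0294 to 0.0460), and 79 of 209668, or 0.0377% (0.0298 to 0.0470). The last place exceeded the interior by 2.07 times without ABA (1.66 to 2.56) and by 2.38 times with ABA (1.98 to 2.86). With runs of 20 or more left out these were 1.64 times (1.31 to 2.03) and 1.98 times (1.64 to 2.38). Last over first was 1.59 (1.19 to 2.14) and 2.40 (1.83 to 3.17). By length, the last place was the highest in runs of 5, 6 and 7 in both libraries. In runs of 9 to 19 the first place was, at 0.0467% and 0.0851% against 0.0303% and 0.0309%, on 4 and 7 against 3 and 3 G reads. In runs of 8 without ABA the last place was the lowest, with 1 G read. First and interior places had no settled order: the first was 1.30 times the interior without ABA (1.002 to 1.66) and 0.993 times with ABA (0.768 to 1.27), and without the long runs 1.04 (0.7996 to 1.33) and 0.823 (0.636 to 1.05).

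The ABA library was higher at last and interior places, and no difference was resolved at first places. The ratio of ABA to no ABA was 1.53 (1.21 to 1.95) at last places and 1.33 (1.14 to 1.56) at interior places. At first places it was 1.02 (0.738 to 1.41), an interval that also holds the interior value. The ratio at last places was 1.51 times that at first places (1.02 to 2.22), and 1.15 times that at interior places (0.874 to 1.52). The interval of last over first narrowly leaves out 1, and came to hold it on the plus strand (1.28, 0.746 to 2.18), with a minimum of 20 reads (1.44, 0.868 to 2.37) and with variant-like positions kept (1.33, 0.961 to 1.83). First over interior was 0.765 (0.541 to 1.08), so that no other pair of places differed in ABA ratio beyond counting error. For A-to-C the ABA ratio was 1.51 (0.797 to 2.93) at last places and 1.38 (0.860 to 2.23) at interior places. At first places it was 1.11 (0.656 to 1.90). These lie near the A-to-G ratios and in the same order, and each interval holds 1. A-to-T had 0.575 (0.249 to 1.26), 1.04 (0.662 to 1.63) and 1.26 (0.877 to 1.83), from last to first. The order of places is thus not shown to be particular to A-to-G.

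Runs of exactly 5 show each place on its own, with 6924 to 7441 positions a place. Without ABA the A-to-G rates from the first to the fifth place were 0.0361%, 0.0502%, 0.0363%, 0.0432% and 0.0642%. With ABA they were 0.0390%, 0.0595%, 0.0465%, 0.0614% and 0.0951%. The fifth place was the highest and the first the lowest in either library. The ratios of ABA to no ABA, in the same order, were 1.08, 1.18, 1.28, 1.42 and 1.48, and their intervals overlap, from 0.727 to 1.61 at the first place and from 1.12 to 1.97 at the fifth. In stretches of exactly 4 the ratios were 1.25, 1.52, 1.27 and 1.52, which do not go up place by place. Mean depth hardly changed along runs of 5 in which all places were members: it went from 21.1 to 20.6 base reads without ABA and from 20.3 to 19.8 with ABA.

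**Figure D2:**
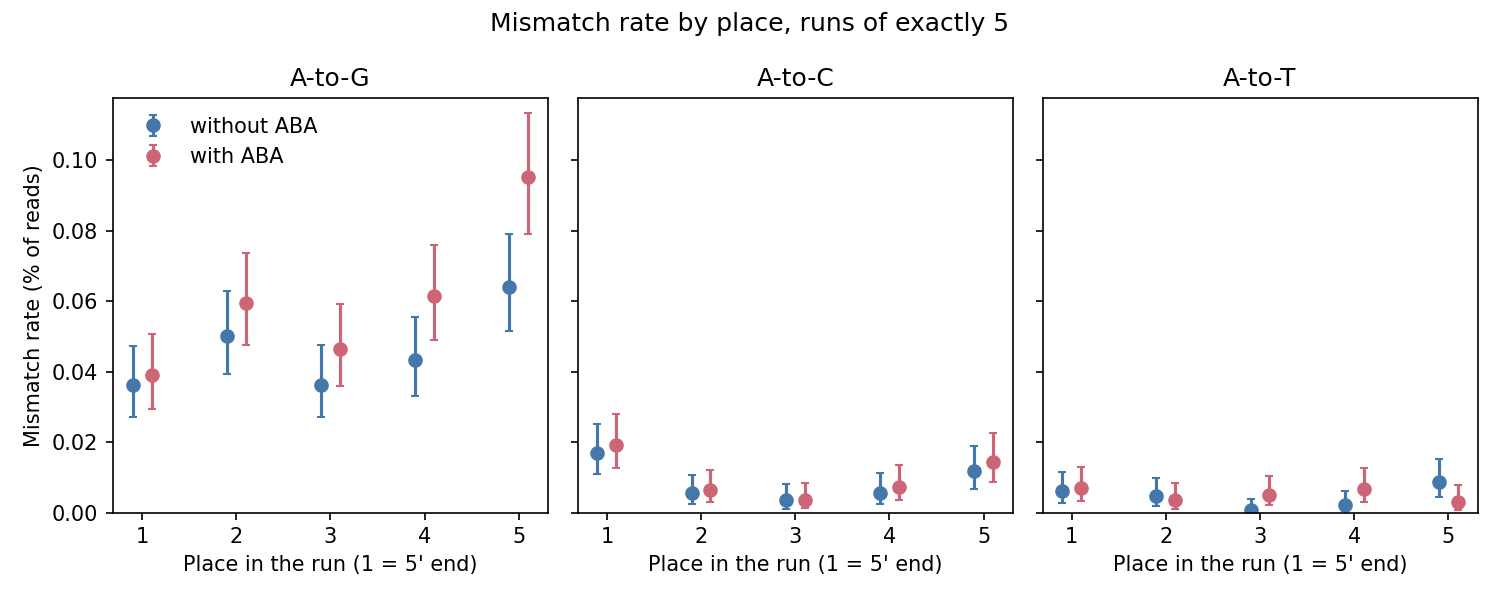
Mismatch rate in percent of reads at each place of runs of exactly 5, counted from the 5′ end, for A-to-G, A-to-C and A-to-T, without ABA (blue) and with ABA (red). Bars are 95% Clopper-Pearson intervals. A-to-G reaches 0.0951% at the fifth place with ABA, while A-to-C and A-to-T stay below 0.02% at each place. The A-to-C points at the first place include chr14:23303641 and chr18:77805949, where a large share of reads showed C.

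Over all runs both background changes were highest at first places, in part through the few positions given in the next paragraph. A-to-C was highest at first places, with 0.0137% without ABA and 0.0153% with ABA, against 0.00328% and 0.00452% at interior places. Last places had 0.0087% and 0.0132%. First over interior was 4.18 (2.47 to 7.04) and 3.38 (2.07 to 5.46). Over all runs A-to-T was also highest at first places, at 0.0260% and 0.0329%, against 0.00414% and 0.00431% at interior places and 0.00967% and 0.00556% at last places. Runs of 7 and of 9 to 19 held most of these first-place T reads, 13 and 30 of 57 without ABA, and 15 and 40 of 69 with ABA. In runs of exactly 5, first over interior was unresolved for A-to-T, at 2.42 (0.887 to 6.43) and 1.41 (0.591 to 3.12), and without ABA the last place was higher than the first, at 0.00875% against 0.00614%. The excess at the last place was thus shared by A-to-C in both libraries, at 2.66 times the interior (1.41 to 4.84) and 2.91 times (1.72 to 4.84). A-to-T showed it without ABA, at 2.33 times (1.30 to 4.06), and was unresolved with ABA, at 1.29 times (0.598 to 2.56).

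A few positions held much of the first-place background. At chr12:6640976, the first place of a run of 10, T was seen in 9 of 21 reads and, in the ABA library, in 20 of 31. At chrX:25663792, first in a run of 7, it was 5 of 12 and 11 of 16. For A-to-C, chr14:23303641 had 6 of 19 and 9 of 18 reads, and chr18:77805949 had 6 of 11 and 7 of 10, both first in a run of 5. These 4 positions were chosen after their values were seen, since 35% or more of their reads showed 1 change in at least 1 library. With the libraries summed and these 4 positions left out, a choice made after seeing the data, first over interior went from 6.96 to 4.48 (3.26 to 6.15) for A-to-T and from 3.74 to 2.05 (1.33 to 3.11) for A-to-C. Last over interior was then 2.81 (1.89 to 4.12) for A-to-C, so that its first places were no longer the highest. A-to-G reads at first places were spread, with at most 2 at any position in either library. At last places they were less so: with ABA, 7 positions had 3 or more, and at most 5. Single G reads made up 74.3% of those at last places with ABA, against 92.4% at first and 89.5% at interior places. Last positions with a G read numbered 112 without ABA and 150 with ABA. First positions numbered 79 and 76, and interior ones 279 and 338.

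The ABA ratio at last places was highest in pairs. In pairs, stretches of 2 consecutive A positions, the last A went from 0.0568% to 0.147%, a ratio of 2.59 (2.46 to 2.72). The last A of 3 had a ratio of 1.88 (1.69 to 2.09), of 4 a ratio of 1.52 (1.27 to 1.80), and of 5 or more a ratio of 1.53. Set against pairs, the last place of runs of 5 or more had 0.594 times the ratio (0.469 to 0.751). Against 3 it was 0.818 times (0.635 to 1.05), and against 4 it was 1.01 times (0.760 to 1.35), so neither of these was resolved. Without ABA the last places of pairs, at 0.0568%, and of runs of 5 or more, at 0.0590%, had overlapping intervals. The gap between them lay in the ABA library, at 0.147% and 0.0905%.

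At first and interior places no difference in ABA ratio between runs of 5 or more and shorter stretches was resolved. The first A had ratios of 1.32 (1.24 to 1.41) in pairs, 1.23 (1.09 to 1.40) in 3 and 1.25 (1.02 to 1.55) in 4. The first place of runs of 5 or more had 0.772 times the ratio of the first A of pairs (0.563 to 1.06), an interval that holds 1. Interior places had ratios of 1.41 (1.26 to 1.58) in stretches of 3 and 1.39 (1.20 to 1.61) in stretches of 4, near the 1.33 of runs. Isolated A positions, with no listed A beside them, went from 0.0496% to 0.0988%, a ratio of 1.99 (1.93 to 2.05).

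**Figure D3:**
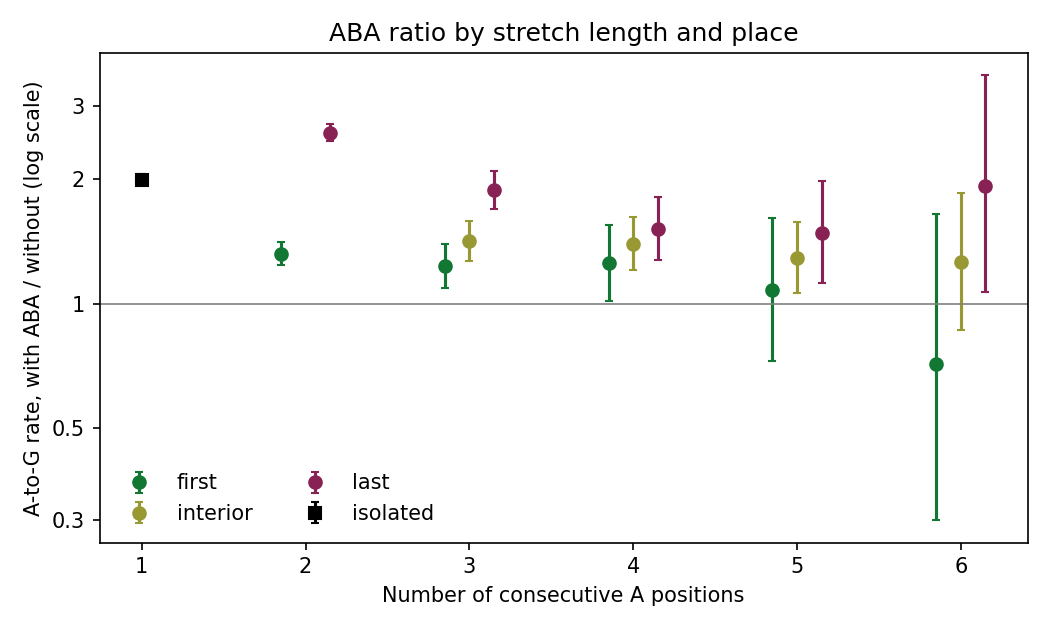
Ratio of the A-to-G rate with ABA to that without ABA (log scale) against the number of consecutive A positions, for first, interior and last places and for isolated A positions. Bars are 95% intervals from the exact conditional binomial. The last place falls from 2.59 in pairs to 1.48 in runs of 5, and is 1.92 (1.07 to 3.55) in runs of 6. First places lie between 0.715 and 1.32 in stretches of 2 to 6.

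Over all places, runs of 5 or more did not stand apart from stretches of 4. The ABA ratio was 2.03 (1.95 to 2.11) in pairs, 1.52 (1.42 to 1.62) in stretches of 3, 1.40 (1.27 to 1.54) in stretches of 4 and 1.31 (1.13 to 1.51) in runs of exactly 5. It was 1.30 (0.976 to 1.75) in runs of 6, 1.21 (0.739 to 1.99) in runs of 7, 0.990 (0.377 to 2.57) in runs of 8 and 1.53 (0.982 to 2.40) in runs of 9 or more. The intervals of these 4 classes hold 1. Runs of 5 or more had 0.955 times the ratio of stretches of 4 (0.820 to 1.11) and 0.881 times that of stretches of 3 (0.771 to 1.01).

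The gap in ABA ratio was present in each class of depth. In runs of 5 to 19 the ratio was 1.24 (1.03 to 1.504) at positions whose lower depth was 10 to 19 reads, 1.32 (1.08 to 1.61) at 20 to 49 and 1.34 (1.03 to 1.73) at 50 or more. Positions outside runs had 1.94, 1.88 and 1.87 in the same classes. The last A of pairs had 2.63, 2.52 and 2.54. The rates themselves were higher at deeper positions: 0.0297%, 0.0434% and 0.0956% without ABA in runs of 5 to 19, and 0.0336%, 0.0533% and 0.136% outside runs.

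A positions near a run also had a smaller ratio than those far from any. Outside the runs, A positions within 20 nt of one went from 0.0485% to 0.0730%, a ratio of 1.504 (1.39 to 1.63). Those more than 100 nt from any listed run went from 0.0479% to 0.0958%, a ratio of 1.999 (1.95 to 2.05). The near ratio was 0.752 times the far one (0.691 to 0.819). Within 100 nt the ratio was not ordered by distance. It was 1.42 (1.21 to 1.66) at 11 to 20 nt upstream and 1.82 (1.54 to 2.15) at 11 to 20 nt downstream. At 21 to 50 nt it was 1.66 (1.49 to 1.84) upstream and 1.57 (1.40 to 1.75) downstream, and at 51 to 100 nt it was 1.61 (1.45 to 1.79) and 1.75 (1.57 to 1.95). All of the last 4 intervals lie below the ratio of 1.999 beyond 100 nt. For isolated A positions the near and far ratios were 1.55 and 2.07, and 0.749 was the quotient (0.661 to 0.848). For the last A of a pair they were 1.77 and 2.72, a quotient of 0.649 (0.533 to 0.791). The first A of a pair had 1.43 near a run and 1.32 far from one, a quotient of 1.08 (0.844 to 1.39). Summed depth with ABA was 0.960 times that without ABA near runs and 1.01 times far from them, and the part of this in the result was not tested.

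**Figure D4:**
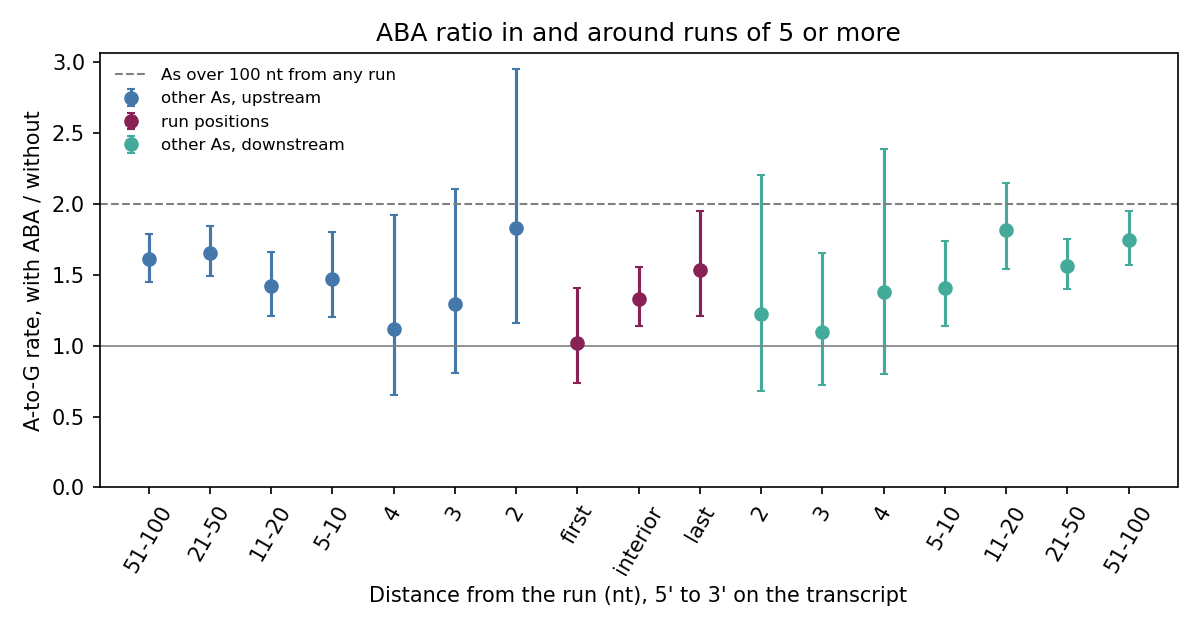
Ratio of the A-to-G rate with ABA to that without ABA at the first, interior and last places of runs of 5 or more and at other A positions by distance from the nearest run, upstream (left) and downstream (right) on the transcript. Bars are 95% intervals; the dashed line is the ratio of 1.999 at A positions more than 100 nt from any run, and the solid line is 1.

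Both strands and most chromosomes showed the same direction. The A-to-G ratio of run positions was 1.38 (1.17 to 1.63) on the plus strand and 1.28 (1.08 to 1.53) on the minus strand. The background change A-to-C had 1.63 (1.10 to 2.45) on the plus strand, an interval that leaves out 1. On the minus strand A-to-C had 0.989 (0.609 to 1.60). The A-to-G ratio was above 1 on 19 of 23 chromosomes, with a median of 1.31, and below 1 on chromosomes 10, 18, 21 and X. The interval lay above 1 on 3 of them, with ratios of 1.68 on chromosome 1, 1.90 on chromosome 2 and 1.86 on chromosome 11. No chromosome had an interval below 1. Each rests on 10 to 140 G reads over both libraries.

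The A-to-G reads of runs were scattered over many positions. Single G reads made up 89.8% of G reads in runs without ABA and 85.5% with ABA. A G read was seen at 434 run positions without ABA alone, at 528 with ABA alone and at 36 in both. Outside runs these numbers were 10676, 19785 and 1383, so that ABA-only over no-ABA-only positions came to 1.22 in runs and 1.85 elsewhere. G reads were found in 435 of the 12239 runs in the library without ABA and in 512 in the ABA library. In 32 and 46 of these they lay at 2 or more positions. The position with most G reads, chr21:9827526, at place 4 of a run of 5 on the plus strand, had 8 of 209 reads and, in the ABA library, 6 of 239. With it left out the overall ratio was 1.35.

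No single run position was called. Fisher's exact test was run on the 359222 nuclear positions that had 20 or more base reads in each library, and its p was adjusted over them by Benjamini-Hochberg. It raised 0 and lowered 0 of all positions, a background of 0% each way, and so none of the 17395 members tested. The lowest unadjusted exact p was 0.00015 over all positions and 0.0254 among members. A difference of the summed size cannot be seen at single positions of this depth, so the lack of calls does not show equal rates. At an unadjusted exact p under 0.05, 1 member was higher with ABA (background 0.0175%) and 0 were lower (background 0.000557%). Changes of at least 10 percentage points were seen at 0 members, against 0.0237% of all positions higher and 0.00167% lower. At 5 points or more, 5 members were higher and 7 lower, against 0.23% and 0.0585%. In the members that is 0.0287% higher and 0.0402% lower.

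The largest changes of single positions rest on a few reads. The member with that p under 0.05 was chr12:21790043, at place 4 of the minus-strand run printed first. It had 0 of 77 reads in the library without ABA, which allows up to 3.90%, and 5 of 73 in the ABA library, or 6.85% (2.26 to 15.3). Its unadjusted exact p in Fisher's test was 0.0254, and its adjusted p was 1. Its neighbour at the fifth place had 0 of 78 and 1 of 76. At chr1:68153678, last in a run of 5, G made up 2 of 29 reads and, in the ABA library, 4 of 27. It was the 1 member with at least 20 reads, 3 G reads and a share of 10% in the ABA library. That is 0.00457% of the 21869 members with 20 reads there, against 147 of 453777 positions outside runs (0.0324%). Without ABA no member that was not variant-like met it, of 25108, against 43 of 468611 outside runs (0.00918%). Among the 10 members of largest change, 5 were higher with ABA and 5 lower, with sizes from 5 to 9.52 percentage points and adjusted p of 1 each.

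Whole runs gave no call either. Reads were summed over each stretch with at least 50 A plus G reads in both libraries, 89612 stretches of every length, of which 11943 were runs of 5 or more. Adjusted by Benjamini-Hochberg over all stretches, Fisher's exact test gave 0 raised and 0 lowered stretches, a background of 0% each way, and none among the runs. Here too the lack of calls does not show equal rates. At an unadjusted exact p under 0.05, 1 run was higher (background 0.0681%) and 0 lower (background 0.00223%). By any amount, 494 runs were higher with ABA, or 4.14%, against 7.61% of all stretches, and 411 were lower, or 3.44%, against 4.65%. These shares do not compare like depths per position. An isolated position needs 50 reads to enter, while a run reaches the minimum at a lower depth per place. Outside runs, rates at 50 reads or more were 0.136% without ABA and 0.254% with ABA. At 10 to 19 reads they were 0.0336% and 0.0651%.

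The 4 runs printed above had no G read without ABA. The run on chromosome 12 had 0 of 380 and 6 of 376 reads, with an unadjusted exact p of 0.0148 and an adjusted p of 1. Of these 6 reads, 5 were at place 4 and 1 at the fifth. With a floor of 3 reads in place of the 0, its rate was 2.02-fold higher with ABA. That value is not a lower bound, since the interval of the ratio starts at 1.19, and the run was picked for its low p. The run on chromosome 3 had 0 of 1072 and 3 of 826, and that on chromosome 15 had 0 of 596 and 3 of 573. In both, all 3 reads were at the last of 6 places. The run of 11 on chromosome 2 had 0 of 1868 and 4 of 2312, with 2 reads at place 4 and 2 at the last. Of the other two runs of lowest p, chr11:62334476-62334480 had 0 of 680 and 2 of 446, and chr11:62649529-62649536 had 0 of 344 and 2 of 252, both reads of the latter at place 3.

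The variant-like members lay at first, interior and last places, most often at the last. Of the 9, 4 were G in every read of both libraries: chr2:217012901 (22 and 18 reads), chr1:226570840 (29 and 32), chr2:198362018 (28 and 33) and chr4:88258483 (10 and 11). The other 5 had shares between 32.4% and 66.7%. The highest share among the members that were kept was 33.3%. With the 9 included, the rates of all members were 0.0451% and 0.0571%, a ratio of 1.27 (1.14 to 1.41).

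Some runs share their pattern of listed A positions with another run. The other bases and the placement of reads between such loci were not examined. The runs chrX:138802886-138802895 and chr2:47562602-47562611, both on the plus strand and both among the 5 deepest runs of 5 to 19, had the same pattern of listed A positions, printed here since both loci share it.
both loci: aanaaaananAAAAAAAAAAnaannnnaan
The X locus had 0 of 2068 and 1 of 2408 G reads, and the chromosome 2 locus had 0 of 1770 and 0 of 1501. Of 9047 runs of 5 to 19 with at least 3 listed A positions on each side, 267 (2.95%) shared their pattern within 20 nt with another run. They fell into 118 patterns, the largest of 6 runs.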

How the data were processed

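Messenger RNA of HEK-293T cells was sequenced in 2 libraries. Per the file headers, the authors deposited a raw read count for each base at listed A positions (T on the minus-strand files), 2 files per library, with a single base read cutoff of 5; the lowest listed depth is 6. The submitters' processing notes name cutadapt, HISAT2 and hg19, without versions. The counting program, duplicate removal and molecular identifiers are not given in the sources used here, and whether listed positions count from 0 or 1 is not either.

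Minus-strand bases were complemented and read in descending position. Consecutive listed positions of both libraries formed the stretches. An A below the cutoff breaks a run, so some lengths are lower bounds and some first or last places may lie beside an unlisted A. Rates sum reads; shares have Clopper-Pearson intervals, ratios exact conditional binomial intervals, and differences and ratios of ratios normal approximations. A count of 0 allows up to 3 reads. Named sites were the 10 members of largest change with at least 20 reads, the 6 runs of lowest p, and the 5 longest and 5 deepest runs; the 5 deepest of 5 to 19, the position with most G reads and the near-run comparison were added after values were seen. The site and run tests were also run on simulated, independent reads with planted changes far larger than the summed rate differences given above. That simulation does not show whether differences of the reported size could be called. Members, lists and comparisons were chosen with earlier results of these data known. No hg19 annotation was used, so no gene is named. Computation used scipy 1.17.1, pandas 2.3.3 and numpy 2.4.6 in Python 3.11.15, and figures matplotlib 3.10.9.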

Additional observations from a re-analysis of the deposited data

Results flagged for a closer look

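These 4 comparisons were picked out because the shift between libraries differed between sets of positions, with a 95% interval of the quotient that does not hold 1. The ABA ratio of run positions was 0.698 times that of other positions (0.619 to 0.787). At last places of runs it was 0.594 times that of the last A of pairs (0.469 to 0.751). Last places of runs had 1.51 times the ratio of first places (1.02 to 2.22), an interval that holds 1 under 6 of the alternatives given in the next part. Other A positions within 20 nt of a run had 0.752 times the ratio of those more than 100 nt away (0.691 to 0.819), with ratios in between at 21 to 100 nt. Each rests on 1 library per condition, and the cause was not tested.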

How the results depend on the processing

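Of 269 alternative values, 220 kept their side of 1 and whether their interval holds it, or their size for counts. The ABA ratio of all members ran from 1.27 to 1.40 over its alternatives, and its quotient to other positions from 0.660 to 0.746. The cause of the changes below was not tested. The ABA ratio at first places fell below 1 with a coverage minimum of 6 (0.999), variant-like positions kept (0.998), the minus strand alone (0.918), a listed A within 20 nt on each side (0.936), runs of 6 or more (0.901) and positions weighted equally (0.959). The last-place ratio over it came to hold 1 with a minimum of 20 (1.44), variant-like positions kept (1.33), the plus strand alone (1.28), runs of 6 or more (1.85) or 7 or more (1.16) and thinned reads (1.49). First over interior with ABA rose above 1 with a minimum of 20 (1.16), variant-like positions kept (1.20), the plus strand alone (1.18), runs of 6 or more (1.45) or 7 or more (2.75), the position with most G reads left out (1.01) and thinned reads (1.01). Without ABA its interval came to hold 1 on the minus strand (1.09), with a listed A on each side (1.09), in runs of 4 or more (1.16), with a variant-like limit of 20% (1.28), with thinned reads (1.23) and without runs of 20 or more (1.04), the last added after seeing the data. The interior ABA ratio lost its side of 1 on the minus strand (1.24) and in runs of 7 or more (1.38), as did the last-place ratio there (1.34). A-to-T in runs over other positions came to hold 1 without ABA (1.23) with the position of most T reads left out, also added after seeing the data. With the positions of a large T share left out instead, its interval without ABA stayed above 1 (1.48). For the background changes with libraries summed, A-to-T last over interior came to hold 1 with a minimum of 20 (1.66), on the minus strand (1.21), with a listed A on each side (1.5) and in runs of 4 or more (1.17). A-to-C did so for first over interior on the minus strand (1.37) and for last over interior in runs of 6 or more (2.35) and 7 or more (2.51). By length, runs of 6 passed 1 with a minimum of 6 (1.34) and with a listed A on each side (1.37). Runs of 7 turned on the minus strand (0.999), and runs of 8 with a minimum of 20 (1.49), on the minus strand (1.08) and with equal weights (1.02). Runs of 9 or more had 2.44 with a minimum of 20 and 0.881 with positions weighted equally. Single positions past 10 points numbered 21 higher and 10 lower with a minimum of 10 reads, or 0.0319% and 0.0152% of members, against 0.0681% and 0.0227% of all positions. At 5 points they were 5 and 7, and a mid-p test gave 2 higher at an unadjusted p under 0.05. No paired analysis was possible because each condition has 1 library and the sample labels number no replicates. Most members have under 20 reads, so a share at a single position is loosely bounded.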
